A study of Arabidopsis thaliana with 9 samples.

Results

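LHCA1 to LHCA6 are the 6 nuclear genes of Arabidopsis thaliana for the chlorophyll-binding antenna proteins of photosystem I. They were taken by locus identifier from a deposited table of 32833 loci, and all 6 were found. The table holds 9 RNA sequencing libraries in 3 groups of 3: seedlings of the wild type accession Col-0, seedlings of the ntrc mutant, and adult ntrc plants, of which young rosette leaves were taken. NTRC, a plastid protein, carries a thioredoxin and its NADPH-dependent reductase in a single chain, and the study's title concerns its part in iron homeostasis. Seedlings were 6 days old and had grown on MS mineral medium in continuous light. Adult plants had grown in soil in short days for 8 weeks, were sampled after 2 h of illumination, and each adult library pooled leaves of 3 plants. Light was 125 µE per square metre and second throughout. The labels give the mutant as ntrc, with no further detail of the allele. Adult wild type leaves are not analysed here, so genotype was compared in seedlings only. Libraries of a group are described as biological replicates.

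Photosystem I receives light energy from a crescent of antenna proteins on one side of its core. LHCA1 pairs with LHCA4 and LHCA2 pairs with LHCA3 in that crescent, and LHCA3 and LHCA4 carry the low-energy chlorophylls that make this antenna absorb further into the red. LHCA5 and LHCA6 are minor members that link photosystem I to the chloroplast NDH complex, a carrier of cyclic electron flow, where LHCA5 takes the place of LHCA4 and LHCA6 that of LHCA2. All of these genes are in the nucleus, and their proteins are imported into the chloroplast.

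In the TAIR10.1 annotation of RefSeq, LHCA1, LHCA2 and LHCA4 are on chromosome 3 and LHCA3, LHCA5 and LHCA6 on chromosome 1. LHCA1 (AT3G54890) spans chr3:20339504-20341176 on the minus strand, LHCA2 (AT3G61470) chr3:22745514-22747444 on the plus strand and LHCA4 (AT3G47470) chr3:17493343-17495033 on the minus strand. LHCA3 (AT1G61520) spans chr1:22699715-22701412, LHCA5 (AT1G45474) chr1:17179250-17180806 and LHCA6 (AT1G19150) chr1:6612630-6613972, all on the plus strand. Their coding sequences are alike in size, from 726 bases in LHCA1 to 822 in LHCA3. LHCA4 shares 53 bases with ATSMC2 (AT3G47460) and LHCA5 shares 192 bases with AT1G45545, both on the opposite strand. The sources used here do not say whether counting used strand. The opposite genes read 0.90 to 2.13 and 0.55 to 1.09 on the log2 scale across the 9 libraries, against 10.67 or more for LHCA4 and 5.72 or more for LHCA5.

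The 250 bases upstream of the annotated start in RefSeq's TAIR10.1 are shown 5′ to 3′ for 4 members whose windows hold no other gene. LHCA2 and LHCA3 are the partners whose values moved most alike between libraries, and LHCA5 is the member that stands in for LHCA4. Capitals mark any match, on either strand, to the G-box CACGTG bound by light-signalling factors, the I-box GATAAG, the motif CCAATC linked to GOLDEN2-LIKE (GLK) factors, or the TATA box letters TATAAA.
LHCA2, chr3:22745264-22745513, plus strand: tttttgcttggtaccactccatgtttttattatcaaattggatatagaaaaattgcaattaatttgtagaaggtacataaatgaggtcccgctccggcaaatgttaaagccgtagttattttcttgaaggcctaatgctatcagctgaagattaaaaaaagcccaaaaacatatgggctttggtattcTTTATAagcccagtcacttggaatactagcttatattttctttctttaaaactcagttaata
LHCA3, chr1:22699465-22699714, plus strand: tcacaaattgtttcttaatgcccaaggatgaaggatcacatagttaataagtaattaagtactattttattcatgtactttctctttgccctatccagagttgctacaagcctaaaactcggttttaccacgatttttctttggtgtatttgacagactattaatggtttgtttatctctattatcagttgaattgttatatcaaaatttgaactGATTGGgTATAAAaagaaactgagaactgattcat
LHCA4, chr3:17495034-17495283, minus strand: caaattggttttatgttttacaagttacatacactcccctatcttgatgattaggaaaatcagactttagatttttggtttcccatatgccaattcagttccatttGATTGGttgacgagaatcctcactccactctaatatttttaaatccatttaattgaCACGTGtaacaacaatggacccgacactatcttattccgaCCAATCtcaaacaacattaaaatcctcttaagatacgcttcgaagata
LHCA5, chr1:17179000-17179249, plus strand: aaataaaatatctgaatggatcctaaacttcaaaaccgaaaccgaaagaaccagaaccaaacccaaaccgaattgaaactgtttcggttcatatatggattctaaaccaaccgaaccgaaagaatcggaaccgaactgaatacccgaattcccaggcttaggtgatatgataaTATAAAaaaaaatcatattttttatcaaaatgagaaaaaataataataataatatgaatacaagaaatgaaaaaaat
LHCA4 was the member with a G-box, and it held 2 CCAATC matches. LHCA1 and LHCA3 held 1 CCAATC match each, and LHCA1, whose window overlaps a neighbouring gene, held 2 I-boxes. In LHCA2, LHCA5 and LHCA6 the TATA letters were the only matches. CCAATC thus occurred in 3 of 6 members, against 10.2% of the 27443 protein-coding upstream windows of this length. The corresponding shares were 6.49% for CACGTG, 12.3% for GATAAG and 47.3% for TATAAA, which 4 of 6 members held. LHCA2 and LHCA3 shared the TATA letters and no other motif searched.

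Levels are on a log2(FPKM + 1) scale. FPKM scales a gene's fragments by transcript length and by library total. Depth is unknown because the table holds no counts, so precision rests on the spread of 3 libraries a group. The upper quartile was 3.70 in each seedling library and 2.44 in each adult library, with an SD of 0 within each group. Summed FPKM nevertheless ran from 602924 to 704511 over the seedling libraries. Libraries of a stage thus share an upper quartile, which scaling by library total alone does not give. The stages were scaled separately, and adult and seedling levels were not tested against each other. NTRC itself (AT2G41680) had 130, 175 and 141 FPKM in wild type seedlings, 16.4, 19.6 and 17.4 in ntrc seedlings and 16.1, 15.1 and 16.2 in adult ntrc leaves, low in each library labelled ntrc. The 12 root markers summed to between 82.1 and 140 FPKM in wild type seedlings and between 106 and 115 in ntrc seedlings. In adult leaves the same sum was 0.169 to 0.346 FPKM, with 8 or 9 of the 12 listed at 0. Mean log2 values of 10 genes for carbon fixation, taken as green tissue markers, were 11.17 to 11.56 in wild type and 11.17 to 11.33 in ntrc seedlings. The ntrc values lay within the wild type range. In whole seedlings the share of green cells and the RNA per green cell cannot be told apart.

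LHCA1 to LHCA4 were among the most abundant messages of each seedling library, and LHCA5 and LHCA6 were far below them. In wild type seedlings the mean FPKM was 2873 ± 601 for LHCA4, 2559 ± 678 for LHCA1, 1669 ± 361 for LHCA3, 1612 ± 392 for LHCA2, 148 ± 23.3 for LHCA5 and 86.2 ± 17.3 for LHCA6 (mean ± SD, n = 3). LHCA1 to LHCA4 ranked between 10 and 36 of all loci in the wild type libraries and between 7 and 26 in the ntrc seedling libraries. LHCA5 ranked between 597 and 736 and LHCA6 between 997 and 1400 in seedlings of both genotypes. Together LHCA1 to LHCA4 made up 1.07% to 1.47% of all FPKM in wild type seedlings, 1.38% to 2.05% in ntrc seedlings and 0.724% to 0.766% in adult ntrc leaves. The most abundant locus of the adult libraries was plastid-encoded and held 16.6% to 17.4% of their FPKM, against at most 2.73% for the top locus of a seedling library, so these shares are not compared between stages.

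The order of the levels was much the same in each group. LHCA4 was above LHCA1, LHCA1 above LHCA3, and LHCA3 above LHCA2 in each of 3 wild type libraries, although the ranges of these neighbours overlapped across libraries. In ntrc seedlings LHCA4 (3828 ± 979 FPKM) and LHCA1 (3741 ± 943) could not be put in order, with LHCA4 higher in 2 of 3 libraries, nor could LHCA3 (2140 ± 454) and LHCA2 (2133 ± 497). The range of LHCA1 did not overlap that of LHCA3 there. In adult ntrc leaves LHCA4 (1741 ± 107) stood clear of LHCA1 (1289 ± 141), while LHCA3 (1115 ± 92.4) overlapped both LHCA1 above it and LHCA2 (1041 ± 58.7) below it. LHCA1 did not overlap LHCA2 there. LHCA5 was above LHCA6 without overlap in all 3 groups, by 1.72-fold in wild type seedlings, 1.63-fold in ntrc seedlings and 1.61-fold in adult leaves. The step from the lowest of LHCA1 to LHCA4 down to LHCA5 was 10.9-fold in wild type seedlings, 14.1-fold in ntrc seedlings and 17.8-fold in adult leaves, as ratios of mean FPKM.

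**Figure D1:**
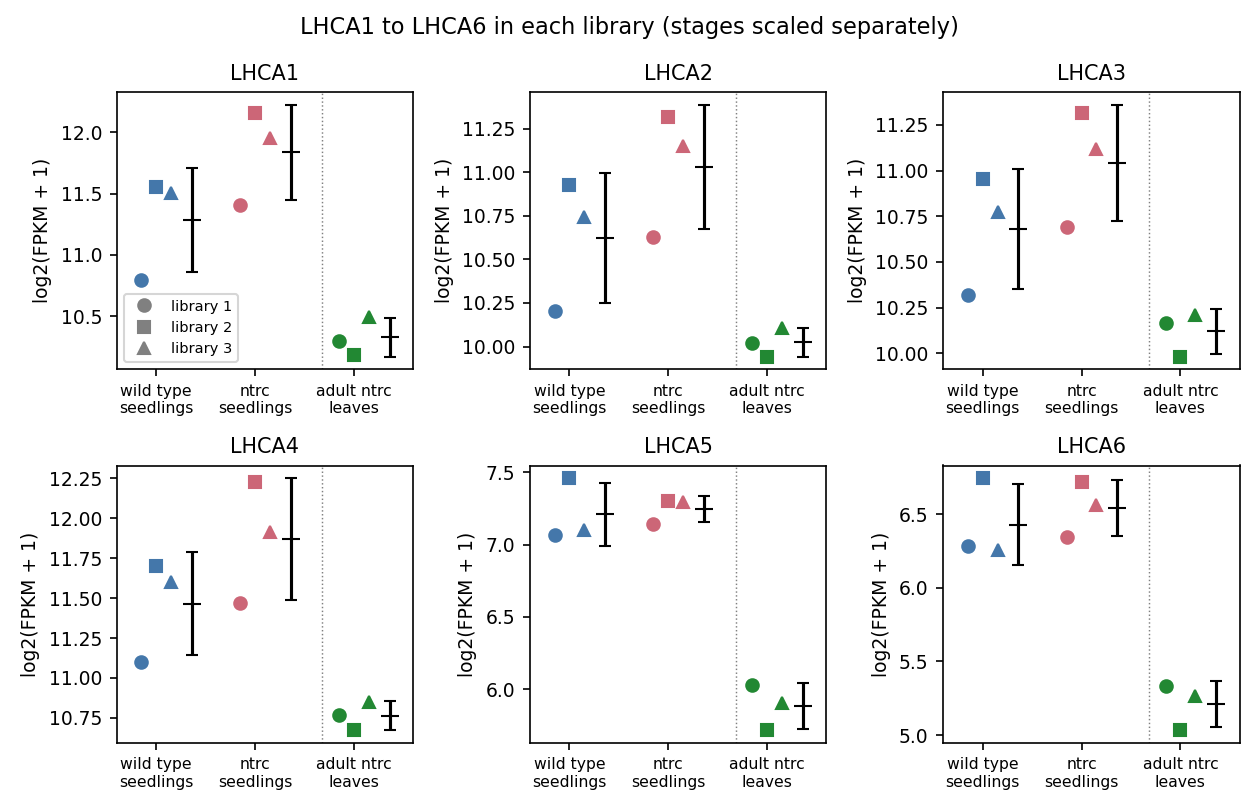
Level of each LHCA gene as log2(FPKM + 1) on the vertical axes, by group, with 1 symbol shape for each library number and the mean ± SD (n = 3) as a black bar; vertical axes differ between panels and the dotted line separates stages that were scaled separately. Library 1 is the lowest library for LHCA1 to LHCA4 in both seedling genotypes, and the genotypes overlap in all 6 panels.

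The first comparison asked whether loss of NTRC changed the antenna genes in seedlings. LHCA1 to LHCA4 had higher mean levels in ntrc than in wild type, by 1.28-fold to 1.47-fold, while LHCA5 and LHCA6 were nearly level, at 1.03-fold and 1.08-fold. None of the 6 passed the test, and for none were the genotypes separate. The difference of LHCA1 to LHCA4 was seen in each pair of libraries of the same number, and it was smaller than the range of values within either genotype. The numbers come from the sample titles. No label says that they pair the libraries, and the choice to treat them as pairs was taken from the values.

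LHCA1 encodes the partner of LHCA4 in the antenna crescent. In wild type seedlings its libraries 1 to 3 read 10.80, 11.55 and 11.50, and those of ntrc seedlings read 11.40, 12.15 and 11.95. The 2 higher wild type libraries lay above ntrc library 1, so the groups overlapped. Its log2 fold change was 0.55 (SE 0.27, 95% interval -0.083 to 1.19) and the adjusted p by limma, after Benjamini-Hochberg, was 0.947. The differences of the 3 pairs were 0.61, 0.60 and 0.45.

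LHCA4, the most abundant member, read 11.10, 11.70 and 11.60 in wild type seedlings, and 11.47, 12.23 and 11.92 were its ntrc values. Only ntrc libraries 2 and 3 lay above all wild type libraries. The log2 fold change was 0.40 (SE 0.25, 95% interval -0.17 to 0.98), with pair differences of 0.37, 0.52 and 0.32.

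LHCA2, which pairs with LHCA3, had wild type values of 10.21, 10.93 and 10.74 and ntrc values of 10.63, 11.32 and 11.15. Again ntrc library 1 lay within the wild type range and the other ntrc libraries above it. The log2 fold change was 0.41 (SE 0.25, 95% interval -0.17 to 0.98), and the pair differences, 0.42, 0.39 and 0.41, were nearly equal.

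LHCA3 had wild type values of 10.32, 10.96 and 10.77 and ntrc values of 10.69, 11.32 and 11.12, with ntrc library 1 again inside the wild type range. Its log2 fold change was 0.36 (SE 0.23, 95% interval -0.17 to 0.89), with pair differences of 0.37, 0.36 and 0.34.

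LHCA5 and LHCA6, the members that attach photosystem I to the NDH complex, differed less. LHCA5 had wild type values of 7.06, 7.46 and 7.10 and ntrc values of 7.14, 7.30 and 7.29, so that all ntrc values lay inside the wild type range. The log2 fold change was 0.036 (SE 0.13, 95% interval -0.26 to 0.34). LHCA6 had wild type values of 6.28, 6.74 and 6.26 and ntrc values of 6.34, 6.72 and 6.56, again inside the wild type range, with a log2 fold change of 0.11 (SE 0.16, 95% interval -0.26 to 0.49). In pair 2 both were lower in ntrc, by differences of -0.15 and -0.027. The interval of LHCA6 includes the log2 fold changes of LHCA2, LHCA3 and LHCA4. Members were tested against each other only as the ratios within libraries given below. For LHCA5 to LHCA4 and for LHCA6 to LHCA2, the seedling genotypes had p = 0.2 by exact permutation (adjusted 0.229). With 3 libraries a group that test cannot give a p below 0.1, so it leaves the difference between members undecided.

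The 6 members had adjusted p between 0.947 and 0.989 by limma with Benjamini-Hochberg adjustment over 18818 genes, of which 5 passed in either direction, or 0.0266%. At an unadjusted p below 0.05 by limma there were 0 members and 943 genes, or 5.01% of those tested. When library pairs were blocked by replicate number, 73 genes passed, or 0.388%, and again 0 members, with adjusted p of 0.0821 for LHCA1, 0.127 for LHCA2, 0.163 for LHCA3, 0.150 for LHCA4, 0.938 for LHCA5 and 0.729 for LHCA6 (limma, Benjamini-Hochberg). In that fit the unadjusted p was 0.000650 for LHCA1, 0.00272 for LHCA2, 0.00509 for LHCA3 and 0.00405 for LHCA4 by limma, where 2185 genes, or 11.6%, had an unadjusted p below 0.05. The 95% intervals in the blocked fit were 0.33 to 0.77 for LHCA1, 0.20 to 0.62 for LHCA2, 0.15 to 0.57 for LHCA3 and 0.18 to 0.63 for LHCA4. The libraries were matched by the number in their titles, but the choice to treat that match as a pairing came from the same values. Its p-values and intervals are therefore not independent support for a difference. LHCA1 to LHCA4 were higher in ntrc in all 3 pairs, as were 18.7% of all genes tested. Groups were separate with ntrc above wild type for 0 of 6 members and for 5.39% of all genes. The median log2 fold change of the members was 0.38, against 0.0037 over all genes tested.

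**Figure D2:**
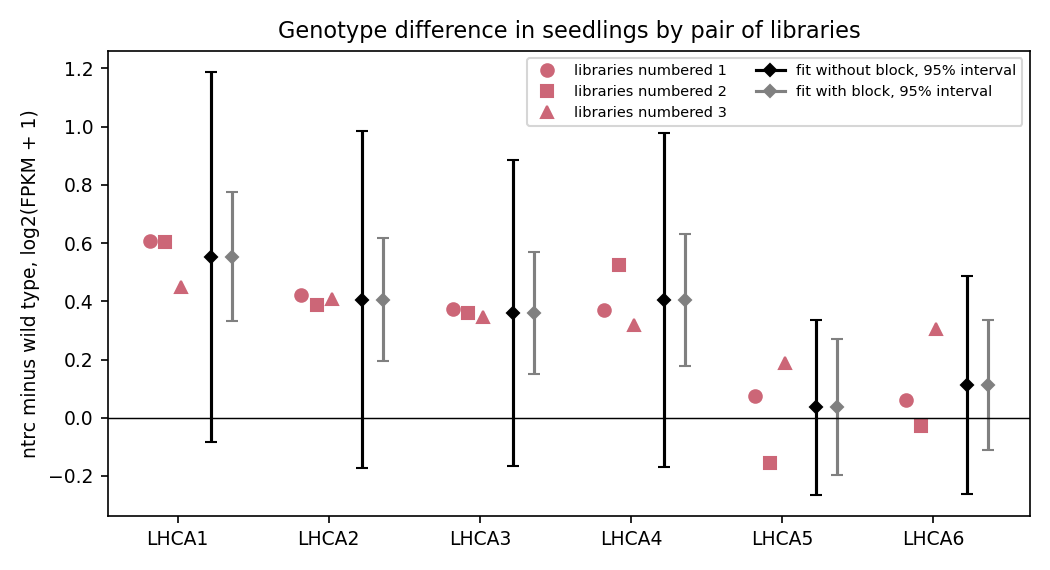
Difference between ntrc and wild type seedlings in log2(FPKM + 1) for each LHCA gene, with red symbols for the 3 pairs of libraries of equal number and diamonds for the fitted fold change with its 95% interval, without a block (black) and with the replicate number as a block (grey). The pairs of LHCA1 to LHCA4 lie between 0.32 and 0.61 and the unblocked intervals include 0 for each gene, whereas those of LHCA5 and LHCA6 scatter around 0.

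These values depended on single libraries and on the scaling. Without wild type library 1 the log2 fold changes were 0.31 for LHCA1, 0.20 for LHCA2, 0.18 for LHCA3 and 0.22 for LHCA4, and under quantile normalization, which gives each library the same distribution, they were 0.32, 0.23, 0.14 and 0.10. Without ntrc library 2 the median of the 6 members was 0.22.

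The libraries of 1 genotype differed in LHCA1 to LHCA4 more than they did for most genes, with residual SDs at percentiles 89.9 to 93.8 of all genes tested, and these members went up and down together. Residual SDs without a block were 0.41 for LHCA1, 0.37 for LHCA2, 0.32 for LHCA3, 0.35 for LHCA4, 0.17 for LHCA5 and 0.23 for LHCA6 on the log2 scale, against a median of 0.14 over all genes tested. Once pairs were blocked, the residual SD was 0.064 for LHCA1, 0.012 for LHCA2, 0.0100 for LHCA3, 0.076 for LHCA4, 0.12 for both LHCA5 and LHCA6, and 0.11 at the median of all genes. Library 1 was 0.41 below the wild type mean and 0.40 below the ntrc mean over LHCA1 to LHCA4. Library 2 was above the mean of its genotype by 0.27 and 0.31, and library 3 by 0.14 and 0.089.

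Across the 6 seedling libraries, Pearson's r among LHCA1 to LHCA4 lay between 0.986 and 0.999 for 6 pairs of genes, the highest being that of LHCA2 with LHCA3. LHCA5 and LHCA6 correlated with each other at 0.949, and with LHCA1 to LHCA4 at 0.602 to 0.793. These coefficients describe 6 libraries that share their scaling and were not tested.

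**Figure D3:**
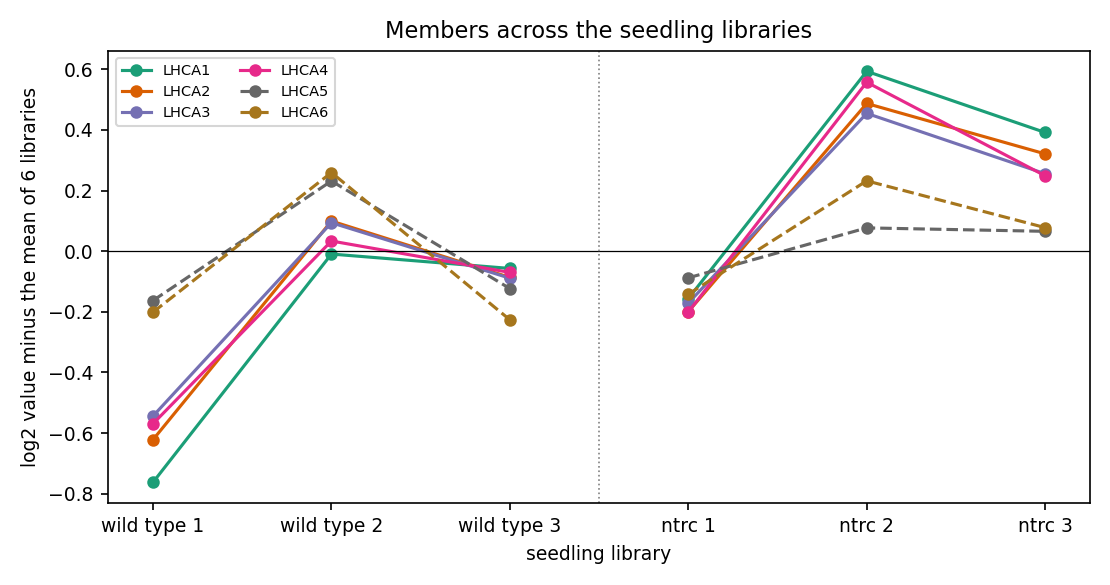
Log2 value of each LHCA gene minus its mean over the 6 seedling libraries, by library, with solid lines for LHCA1 to LHCA4 and dashed lines for LHCA5 and LHCA6; lines only join the values of 1 gene within a genotype. The solid lines run close together from below -0.5 in wild type library 1 to above 0.4 in ntrc library 2, while the dashed lines span a narrower range.

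Genes whose values followed the mean of LHCA1 to LHCA4 most closely were sought among 11403 tested genes with a mean log2 value of at least 3. Of the 6 closest outside the family, 4 were AT4G32440 (Pearson's r = 0.9999), AT3G17950 (r = 0.9997), AT2G20230 (r = 0.998) and AT1G09750 (r = 0.997). The others were the photosystem II antenna genes LHCB1.2 (AT1G29910, r = 0.998) and LHCB3 (AT5G54270, r = 0.997). AT4G32440 and AT3G17950 had mean log2 values of 3.02 and 3.21, just above the cut. The SD over these libraries was 0.14 for AT4G32440 and AT2G20230, against 0.35 to 0.47 for LHCA1 to LHCA4. RefSeq describes AT4G32440 as a Tudor-like RNA-binding protein, AT2G20230 as a tetraspanin, AT1G09750 as an aspartyl protease and AT3G17950 as uncharacterised. An r of 0.95 or more was reached by 245 of the 11403 genes, members included. LHCA6 (r = 0.750) and LHCA5 (r = 0.664) ranked 2045 and 2797 in that order. The 12 nuclear genes of the photosystem I core had r between 0.915 and 0.991, with a median of 0.976. For 14 photosystem II antenna genes the median was 0.988, with a range of -0.41 to 0.998.

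The ratio of members within a library does not depend on a scaling factor applied to that library. LHCA1 stood at 0.811, 0.901 and 0.936 times LHCA4 in wild type seedlings and at 0.957, 0.951 and 1.02 times LHCA4 in ntrc seedlings, as ratios of FPKM. All 3 ntrc libraries were thus above all 3 wild type libraries, by 0.15 on the log2 scale, with pair differences of 0.24, 0.079 and 0.13. By exact permutation, two-sided, p was 0.1, the smallest that 3 libraries against 3 allow, and it was 0.229 after Benjamini-Hochberg adjustment over the 8 ratio comparisons made. In adult ntrc leaves the ratio was 0.723, 0.713 and 0.782, below all ntrc seedling libraries by 0.40 on the log2 scale (exact permutation p = 0.1, adjusted 0.229).

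The other antenna partners kept close to equal levels. LHCA2 was 0.926, 0.981 and 0.979 times LHCA3 in wild type seedlings, 0.958, 0.999 and 1.02 times in ntrc seedlings and 0.904, 0.973 and 0.929 times in adult ntrc leaves, and the groups overlapped. The log2 differences were 0.047 between seedling genotypes, with pair differences of 0.050, 0.027 and 0.063 (exact permutation p = 0.4, adjusted 0.4), and -0.087 between adult and seedling ntrc (exact permutation p = 0.2, adjusted 0.229).

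The minor members stood far below the genes whose places they take. Both ratios had lower means in ntrc than in wild type seedlings, and lower again in adult leaves, but none of these differences passed the threshold of 0.05. LHCA5 stood at 0.0606, 0.0525 and 0.0441 times LHCA4 in wild type seedlings, 0.0494, 0.0328 and 0.0403 times in ntrc seedlings and 0.0370, 0.0317 and 0.0319 times in adult ntrc leaves. Neighbouring groups overlapped, with log2 differences of -0.37 between seedling genotypes and -0.25 between adult and seedling ntrc (exact permutation p = 0.2 for both, adjusted 0.229). The seedling pairs differed by -0.29, -0.68 and -0.13, lower in ntrc in 3 of 3. LHCA6 stood at 0.0651, 0.0545 and 0.0441 times LHCA2 in wild type seedlings and at 0.0507, 0.0409 and 0.0412 times in ntrc seedlings, groups that overlapped (log2 difference -0.29, exact permutation p = 0.2, adjusted 0.229), with pair differences of -0.36, -0.42 and -0.10, lower in ntrc in 3 of 3. In adult ntrc leaves it was 0.0378, 0.0323 and 0.0340 times LHCA2, below all ntrc seedling libraries (log2 difference -0.32, exact permutation p = 0.1, adjusted 0.229). Stage, tissue, growth medium, day length, light before sampling and library kit differ between adult and seedling libraries and cannot be told apart.

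**Figure D4:**
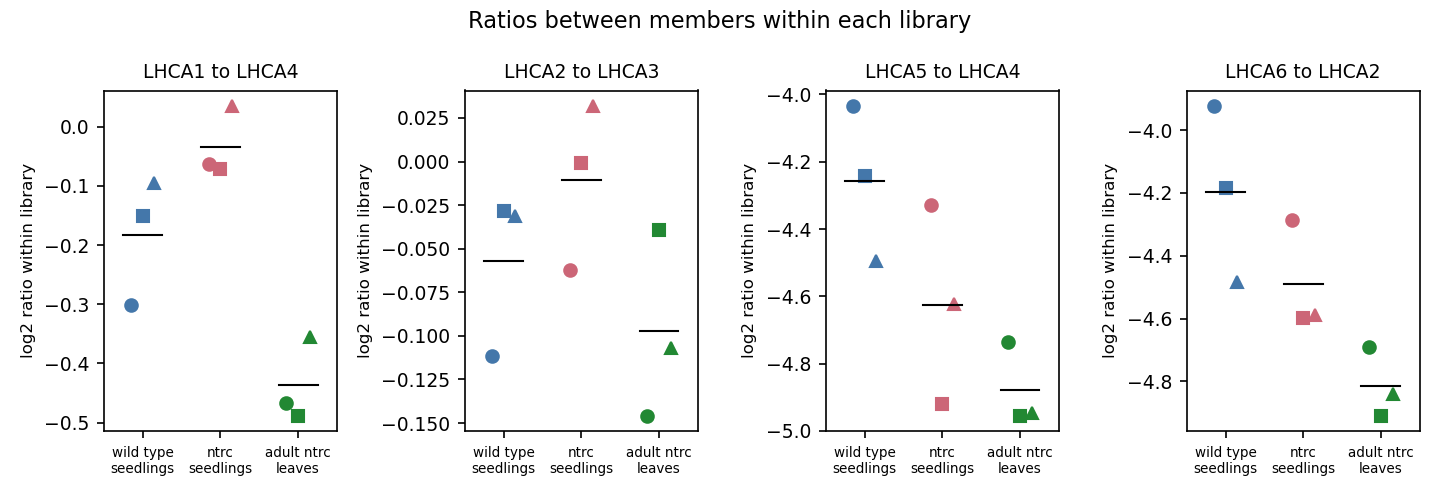
Log2 ratio between 2 LHCA genes within each library for 4 pairs of genes, by group, with 1 symbol shape for each library number and the group mean as a black line; vertical axes differ between panels. The LHCA1 to LHCA4 ratio separates all 3 groups, highest in ntrc seedlings and lowest in adult ntrc leaves, while the LHCA2 to LHCA3 ratio overlaps in all 3.

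Genes that work with the antenna were read from 7 lists of 89 genes. The 12 nuclear subunits of the photosystem I core had positive fold changes, with a median of 0.24 and 0 of 12 past the test with or without the block. PSAF (AT1G31330), which helps dock the electron donor plastocyanin, had the largest at 0.55 (SE 0.30), with 10.59 ± 0.46 in wild type and 11.15 ± 0.44 in ntrc (mean ± SD of log2 values, n = 3), and PSAH1 (AT3G16140) the smallest at 0.13. Under quantile normalization the core median was 0.053 with 10 of 12 positive, and leaving out 1 library at a time it spanned 0.067, without wild type library 1, to 0.41, without ntrc library 1. In each library the mean log2 value of LHCA1 to LHCA4 was above that of the core list, by 0.73 to 0.80 in wild type seedlings, 0.87 to 0.96 in ntrc seedlings and 1.51 to 1.56 in adult ntrc leaves. These ranges did not overlap, and the seedling pairs differed by 0.14, 0.19 and 0.11, higher in ntrc in 3 of 3. The seedling ranges were also separate against the photosystem II antenna list below. How often such a contrast separates over other sets of genes was not counted. No test was made over the lists.

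Antenna genes of photosystem II lay in the same direction. Of 15 members 14 were tested, all with positive fold changes and a median of 0.35, and LHCB1.5 was listed at 0 in the seedling libraries. LHCB2.3 (AT3G27690) rose by 0.66 in the blocked fit (adjusted p = 0.0469 by limma with Benjamini-Hochberg, where 0.159% of genes passed as higher) and had an adjusted p of 0.947 without a block. The blocked value rests on a pairing by number that was chosen from these values. LHCB1.4 (AT2G34430) had the largest fold change, 0.68 (SE 0.51), and LHCB7 (AT1G76570) the smallest, 0.0077. The median was 0.11 under quantile normalization and spanned 0.16, without wild type library 1, to 0.55, without ntrc library 1. The mean log2 value of LHCA1 to LHCA4 was above that of this list by 1.663 to 1.736 in wild type seedlings. In ntrc seedlings it was above by 1.744 to 1.844, without overlap, and in adult ntrc leaves by 1.731 to 2.000. The list mean here is over all 15 genes, so LHCB1.5 at 0 lowers it and widens the seedling offsets. In adult ntrc leaves LHCB1.5 read 1.36 ± 2.36 (mean ± SD of log2 values, n = 3). The adult range therefore includes the spread of that gene and is not compared with the seedling ranges. The seedling pairs differed by 0.081, 0.12 and 0.091, higher in ntrc in 3 of 3. Near-identical LHCB1 and LHCB2 copies make their separate values uncertain.

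Nuclear genes of the NDH complex, which binds LHCA5 and LHCA6, lay the other way, with 15 of 17 lower in ntrc, a median of -0.095 and 0 past the test in either fit. PNSL3 (AT3G01440) had the lowest fold change, -0.41 (SE 0.27), and NDHS (AT4G23890), near the ferredoxin-binding site, the highest, 0.15. Leaving out 1 library at a time, the NDH median spanned -0.20, without wild type library 3, to 0.029 with 9 of 17 higher, without wild type library 2. Relative to the mean log2 value of the NDH genes, the mean of LHCA5 and LHCA6 was 0.41 to 0.65 higher in wild type seedlings, 0.62 to 0.84 higher in ntrc seedlings and 0.70 to 0.77 higher in adult ntrc leaves. The ranges overlapped, and the seedling pairs differed by 0.22, 0.11 and 0.20, higher in ntrc in 3 of 3.

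Other lists had medians within 0.1 of 0, and each of these medians changed sign when single libraries were left out. Factors for the delivery of antenna proteins to the thylakoid and for photosystem I assembly had 5 of 10 higher and a median of -0.0016, from -0.18 for Y3IP1 (AT5G44650) to 0.14 for LTD (AT1G50900). Among 13 regulators of antenna genes the median was 0.0053. The phytochrome-interacting factor PIF4 (AT2G43010) had 0.41 and the GATA factor CGA1 (AT4G26150) -0.25, while GLK1 (AT2G20570) and GLK2 (AT5G44190), activators of photosynthesis genes, had 0.045 and -0.10. Green tissue markers were lower for 8 of 10 genes, with a median of -0.068, from -0.15 for the Calvin-Benson enzyme GAPB (AT1G42970) to 0.088 for the Rubisco small subunit RBCS3B (AT5G38410). Root markers were higher for 9 of 12, with a median of 0.085, from -0.73 for ESB1 (AT2G28670) to 0.37 for EXPA18 (AT1G62980). No gene of these 4 lists passed the test in either fit. The green tissue median was -0.19 with 0 of 10 higher under quantile normalization and -0.11 with 0 of 10 higher without wild type library 1, and it spanned -0.14, without wild type library 3, to 0.074 with 9 of 10 higher, without wild type library 2. The root median spanned -0.081 with 4 of 12 higher, without wild type library 1, to 0.27, without wild type library 3. The targeting and assembly median spanned -0.090 to 0.11 and the regulator median -0.072 to 0.084 when 1 library was left out. In each seedling library the mean of LHCA1 to LHCA4 minus that of the green tissue markers was -0.57 to -0.014 in wild type and -0.12 to 0.43 in ntrc. The ranges overlapped, and the pairs differed by 0.45, 0.70 and 0.28, higher in ntrc in 3 of 3. Levels of green tissue and root markers are given beside the antenna genes, and their part in the antenna values was not tested.

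**Figure D5:**
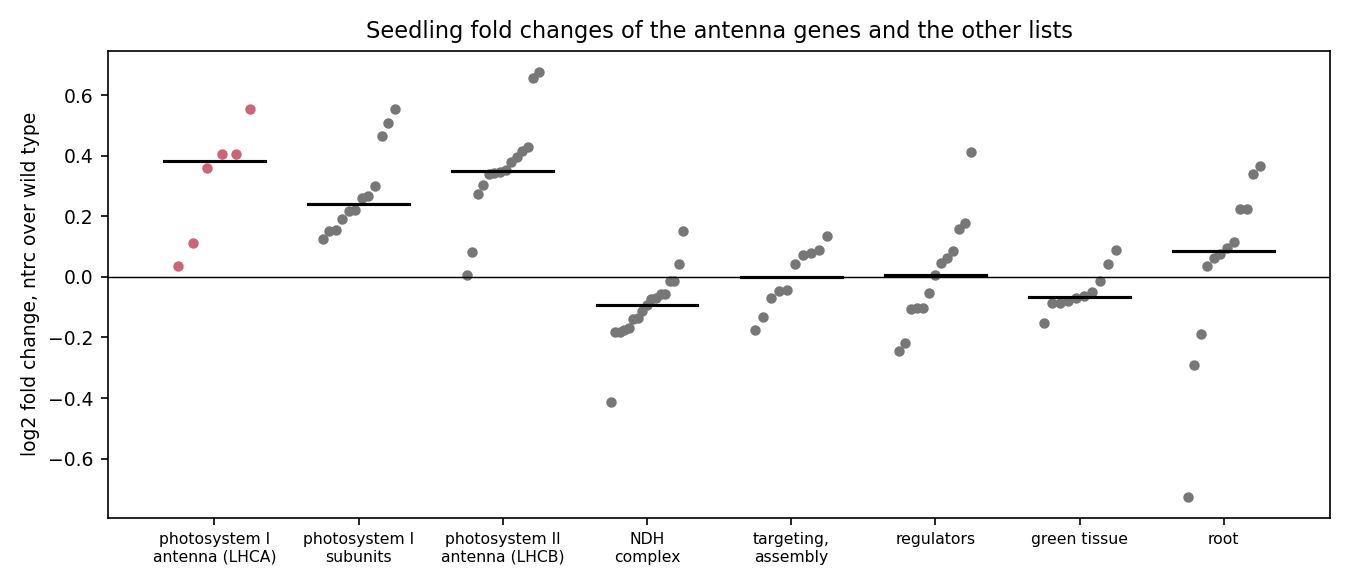
Log2 fold change of ntrc over wild type seedlings for each tested gene of the LHCA family (red) and of 7 other lists (grey), without a block, with the median of each list as a black line. LHCA1 to LHCA4 lie at 0.36 to 0.55, the medians of the photosystem I and photosystem II lists at 0.24 and 0.35, and those of the other 5 lists within 0.1 of 0.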

How the data were processed

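RNA was measured by sequencing in 9 libraries. Per the labels' protocols, the kits were TruSeq Stranded Total RNA with Ribo-Zero for adult leaves and an Illumina stranded mRNA kit for seedlings. FastQC, HISAT2 and StringTie were used with TAIR10, per the submitters' processing notes, which give no versions. The authors deposited 1 table, read here as log2(FPKM + 1). The name of the deposited data gives FPKM, while the log base and pseudocount of 1 were inferred from values that start at 0. No 2 libraries held identical values.

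Seedling genotypes were compared on these values with limma 3.58.1 in R 4.3.3, with mean trend and robust moderation, two-sided, over the 18818 genes that reached 1 FPKM in 3 or more of the 6 libraries. The threshold was a Benjamini-Hochberg adjusted p of 0.05. A fold change on this scale understates the change of low genes. The script was tested on simulated data. Ratios within libraries used exact permutation tests. Alternatives were a pseudocount of 0.1, no filter, quantile or median ratio scaling, a replicate block, and leaving out libraries.

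The replicate number was taken as a pairing because deviations from group means correlated between genotypes, with r of 0.506, 0.406 and 0.278 for numbers 1 to 3. For unlike numbers r lay between -0.388, wild type 1 with ntrc 2, and 0.115, wild type 3 with ntrc 2. Deviations of 3 libraries sum to 0 within a group, so these coefficients depend on each other. The numbers come from the titles, the choice to use them as a pairing comes from the values, and the blocked fit tests the same values. Members and lists were chosen with earlier results of these data known. The text names all members, the extremes of each list, any list gene past the threshold, and the 6 genes most like LHCA1 to LHCA4. GLK1 and GLK2 fall outside that rule and were chosen after their values were seen. Upstream windows were read from the TAIR10.1 genome by its own RefSeq annotation, and the deposited table holds no coordinates.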

Additional observations from a re-analysis of the deposited data

How the results depend on the processing

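Each LHCA1, LHCA2, LHCA3, LHCA4 and LHCA6 fold change kept its positive sign in the 16 alternatives run, and no member passed the threshold in any of them. The unfiltered fit and the 3 blocked fits on all libraries have the fold changes of their counterparts by construction, so their signs add nothing. LHCA5 changed sign in 3, with log2 fold changes of -0.036 without wild type library 1, -0.016 without wild type library 3 and -0.040 with the replicate block and without pair 3. Over the fits that leave out 1 library, fold changes spanned 0.31 to 0.77 for LHCA1, 0.20 to 0.61 for LHCA2, 0.18 to 0.53 for LHCA3, 0.22 to 0.61 for LHCA4, -0.036 to 0.16 for LHCA5 and 0.024 to 0.27 for LHCA6. The median of the 6 members was 0.12 under quantile normalization and 0.19 to 0.57 when 1 library was left out. The cause was not tested. Among within-library ratios, the LHCA1 to LHCA4 difference between seedling genotypes spanned 0.089 to 0.19 without 1 library, and no ratio difference changed sign. Flipping the signs of pairs, a paired exact test, gave p = 0.25 for each ratio, the smallest that 3 pairs allow. The number of genes past the threshold, 1 higher and 4 lower, was 30 and 43 with the replicate block, 27 and 42 with the block and quantile normalization, 26 and 41 with the block and median ratio scaling, and 21, 6 and 28 higher and 51, 23 and 43 lower with the block and without pair 1, 2 or 3. It was 0 and 2 with a pseudocount of 0.1, and 0 to 2 and 1 to 22 when 1 library was left out. The count of 0 higher genes at that pseudocount is by limma, and no other tool was run. Depth is unknown, so no limit from counting error can be given.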
